A study of Oryctolagus cuniculus with 6 samples.

Results

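The integrated stress response and the unfolded protein response were examined through 10 regulators and targets, namely ATF4, ATF6, XBP1, DDIT3, DDIT4, ASNS, PSAT1, TRIB3, CHAC1 and PPP1R15A. They were picked by symbol for their known role, with earlier results of these data known. All 10 were found among the 22190 genes of the count table. Expression was measured by RNA-seq of polyA RNA in rabbit limbal stem cells (LSCs), the epithelial stem cells at the rim of the cornea, that had grown out of limbal explants in culture. The fresh group (3 libraries) came from untreated corneas, and the preconditioned group (3 libraries) from corneas held in liquid nitrogen for one week in a cryomedium with serum, dimethyl sulfoxide and the inflammatory cytokine IL-1β, thawed and then cultured like the fresh ones. Freezing and IL-1β were given together and cannot be told apart here. The strain and age of the rabbits, the animal behind each library, and the day of RNA harvest are not given in the sources used here, so that p values measure only the spread between these libraries, which may be technical.

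In the integrated stress response, kinases that sense amino acid shortage, unfolded protein, viral RNA or heme deficiency phosphorylate the initiation factor eIF2. General translation then slows, while the mRNA of ATF4 is translated better, and ATF4 switches on genes for amino acid synthesis and uptake together with its own inhibitors. The unfolded protein response of the endoplasmic reticulum (ER) shares this arm through the kinase PERK and has a pair of further arms, in which ATF6 is cut free from the membrane and XBP1 mRNA is spliced by IRE1, and which raise ER chaperones and degradation factors. ATF4, ATF6 and XBP1 are therefore controlled largely beyond the level of their mRNA. The counts per gene measure neither translation nor cleavage nor splicing.

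The libraries held 31952352 to 34327534 counts on genes. Libraries of one group differed by more than sampling noise, with a chi-square per degree of freedom of 48.1 to 147, and each was counted as 1 sample. The first principal component (50.4% of variance) placed the fresh libraries at −53.1 to −41.1, preconditioned replicates 2 and 3 at 58.3 and 70.4, and preconditioned replicate 1 at 8.13 between them, so calls among the 10 genes and the pathway lists that change without that library are given both ways. The epithelial markers KRT5 (7337 to 11740 CPM, which are counts scaled by TMM library size) and TP63 were present in every library. TP63 was at 226 to 246 CPM in the fresh and 112 to 184 CPM in the preconditioned group, a log2 difference of −0.77 (adjusted p = 0.059 by edgeR). Of the 7 tested epithelial markers, 3 had a positive and 4 a negative log2 difference. By the same test EPCAM was higher without overlap of the groups (0.50, adjusted p = 0.060). PAX6 was at 0.81 (adjusted p = 0.11) and KRT3 at −1.21 (adjusted p = 0.30), both with overlapping groups. The 7 epithelial markers summed to 9758 to 13490 CPM in the fresh and 9167 to 13500 CPM in the preconditioned group, most of it KRT5. Markers of other cells were also present. The summed level of 8 markers of stromal fibroblasts was 284 to 693 CPM in the fresh and 835 to 1563 CPM in the preconditioned group, with COL1A1 (56.8 to 109 against 505 to 693 CPM) as the only one of the 8 that passed the test and the only one with separate groups. KERA, THY1 and DCN had lower means of log2 level in the preconditioned group, with log2 differences of −1.27, −0.33 and −0.13. The sum of 5 leukocyte markers was 102 to 135 and 125 to 314 CPM, nearly all of it CD68, and CD3E had at most 1 count. That of 4 endothelial markers was 2.67 to 3.13 and 1.07 to 13 CPM, that of 5 melanocyte markers was 4.36 to 5.69 and 2.59 to 3.79 CPM, and PMEL, TYR and MLANA had at most 3 counts in any library. The sum over KRT7, KRT13 and TFF3, listed as conjunctival and goblet cell markers, was 530 to 964 and 392 to 1209 CPM. The part of these cells in the results below was not tested. In such bulk samples, fewer cells of a type and less RNA per cell cannot be told apart.

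Levels of different genes were compared per length, on the deposited FPKM (counts scaled by library total and gene length). In the fresh group PSAT1 was highest, with a mean of 96.6 ± 30.2 FPKM (SD, n = 3), followed by ATF4 (75.8 ± 13.4), XBP1 (72.5 ± 9.43) and DDIT4 (67.2 ± 12.4). The ranges of these 4 genes overlapped, so that their order does not exceed their spread. ASNS (32.9 ± 12.1 FPKM) and DDIT3 (32.7 ± 2.86 FPKM) lay lower and did not differ beyond their spread. TRIB3 (13.1 ± 0.987 FPKM), ATF6 (9.21 ± 0.653 FPKM), CHAC1 (3.83 ± 0.391 FPKM) and PPP1R15A (2.61 ± 0.0794 FPKM) followed, each with all 3 libraries below those of the gene before it. In the preconditioned group, ATF4 (53.7 ± 30.3 FPKM), XBP1 (48.9 ± 7.14) and PSAT1 (42.3 ± 25.0) had the highest means with overlapping ranges. DDIT3 (36.1 ± 8.30), DDIT4 (32.5 ± 3.84), ASNS (12.5 ± 6.06) and ATF6 (8.56 ± 1.14) followed, and of these neighbours only DDIT4 and ASNS had separate ranges. At the lower end, PPP1R15A (5.12 ± 3.38 FPKM), TRIB3 (3.32 ± 3.88) and CHAC1 (2.08 ± 2.12) also overlapped.

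**Figure D1:**
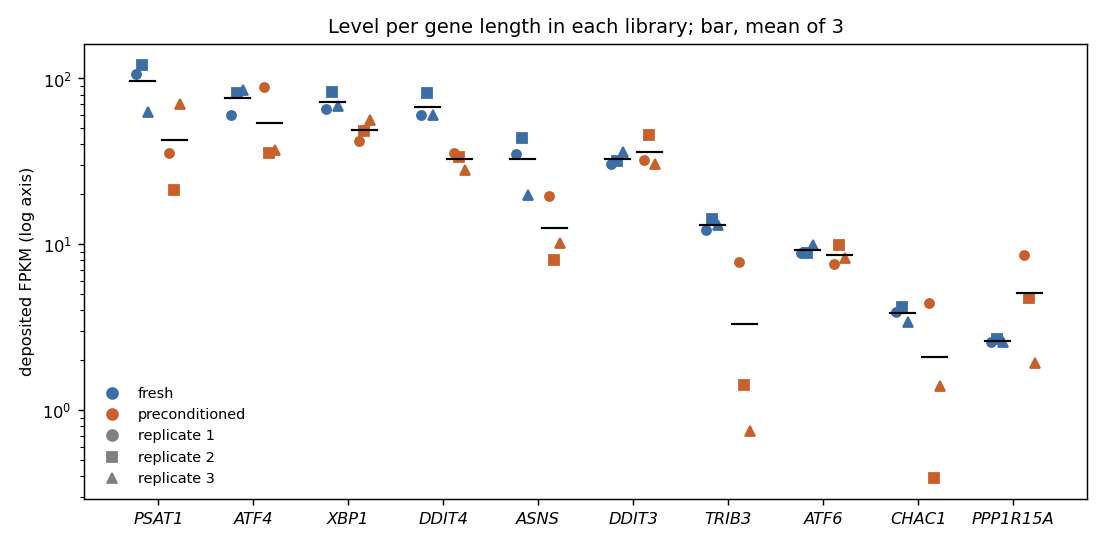
Deposited FPKM (log axis) of the 10 genes, ordered by the fresh mean, in the 3 fresh (blue) and 3 preconditioned (orange) libraries; symbols mark the replicate number and bars the mean of 3. TRIB3 has a fresh mean of 13.1 FPKM and is at 0.753 FPKM in preconditioned replicate 3, and CHAC1 has 3.83 FPKM and is at 0.389 FPKM in preconditioned replicate 2.

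Among the transcription factors, ATF4 and XBP1 had negative log2 differences from fresh to preconditioned cells, and ATF6 and DDIT3 had positive ones. Over all 6 libraries their adjusted p values by edgeR were 0.13 to 0.77, so these signs do not show that the factors moved apart. ATF4 (activating transcription factor 4, NCBI gene 100339383) is the effector of the integrated stress response. Its level was 79.3, 106 and 111 CPM in fresh replicates 1 to 3 and 127, 53.5 and 53.9 CPM in preconditioned replicates 1 to 3. Preconditioned replicate 1 was the highest of all 6 libraries, and the other preconditioned libraries were the lowest. Its log2 fold change from fresh to preconditioned cells (log2FC) was −0.34, with a standard error (SE) of 0.36 and a 95% interval of −1.18 to 0.51. By the quasi-likelihood test of edgeR, which gives all p values below unless DESeq2 is named, the adjusted p was 0.55. Without preconditioned replicate 1 it was −0.89 (SE 0.16, adjusted p = 0.014).

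ATF6 (NCBI gene 100358536) is the membrane-bound sensor and transcription factor that raises ER chaperones. It was expressed at 65.6, 65.7 and 73.5 CPM in the fresh and 62.2, 84.7 and 68.0 CPM in the preconditioned libraries, and the groups overlapped. The log2FC was 0.07 (SE 0.14, adjusted p = 0.77), and its interval from −0.26 to 0.40 does not include a 2-fold change in either direction. Its sign was negative when counts were scaled by library size alone.

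XBP1 (X-box binding protein 1, NCBI gene 100339940) is the factor made from the spliced mRNA and a regulator of secretory capacity. Its level was 111, 140 and 114 CPM in the fresh group and 77.4, 94.0 and 105 CPM in the preconditioned group. Each of the latter was lower than each fresh value. Its log2FC was −0.40 (SE 0.15, 95% interval −0.76 to −0.04, adjusted p = 0.13). DDIT3 (NCBI gene 100338439) encodes CHOP, which promotes cell death under lasting ER stress. It had 22, 23.0 and 25.8 CPM in the fresh and 25.4, 38.2 and 24.6 CPM in the preconditioned libraries. Only preconditioned replicate 2 exceeded the fresh range, and the log2FC was 0.32 (SE 0.20, 95% interval −0.14 to 0.78, adjusted p = 0.31), or 0.086 without that library.

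**Figure D2:**
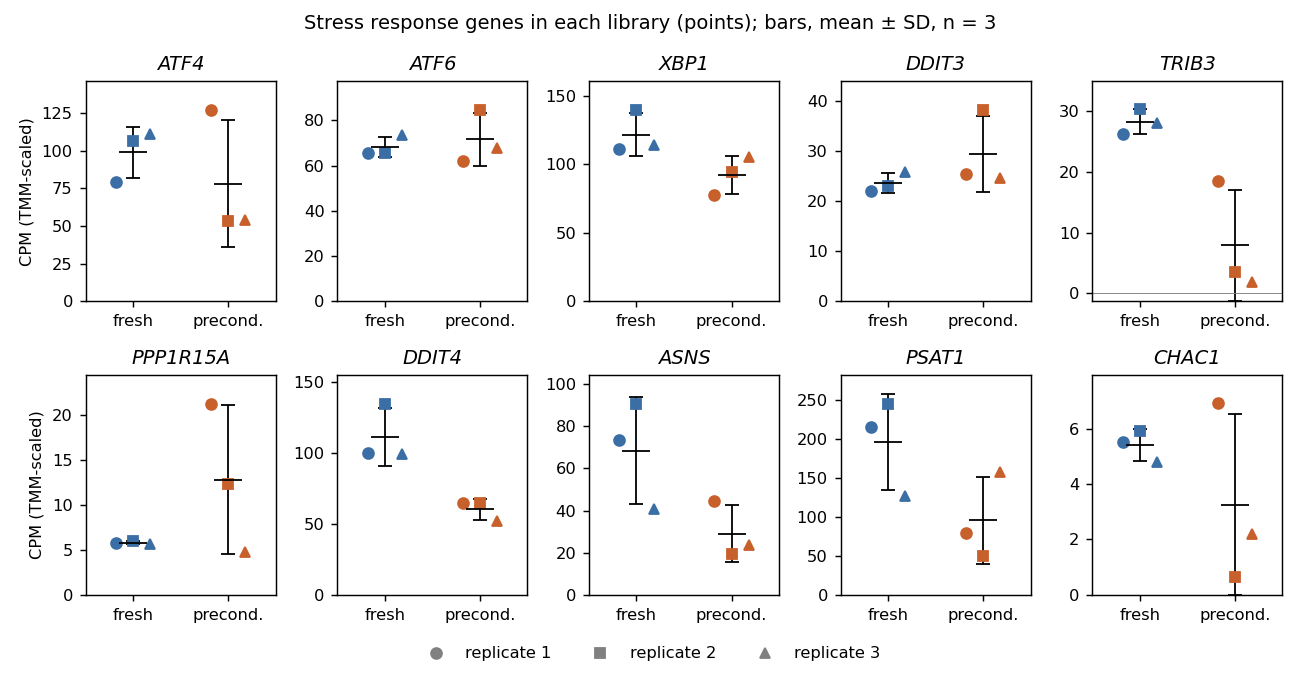
CPM (TMM-scaled) of each of the 10 genes in the fresh and preconditioned libraries, with the replicate number as symbol and black bars for the mean ± SD (n = 3; the bar of TRIB3 reaches below 0 because its preconditioned libraries span 1.81 to 18.4 CPM). For DDIT4, XBP1 and TRIB3 all preconditioned points lie below all fresh points, while PPP1R15A is even in the fresh libraries and spread in the preconditioned ones.

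The genes of feedback and growth arrest differed in how even their levels were. TRIB3 (tribbles pseudokinase 3, NCBI gene 100347046), a target of ATF4 and CHOP that acts back on ATF4, had 26.3, 30.4 and 28.1 CPM in the fresh group. In the preconditioned group it had 18.4, 3.55 and 1.81 CPM, and the groups did not overlap. The fresh libraries spanned 1.16-fold and the preconditioned ones 10.2-fold. Over all 6 libraries the log2FC was −1.83 (SE 0.79, 95% interval −3.70 to 0.04, adjusted p = 0.17 by edgeR). Without preconditioned replicate 1, TRIB3 fell by 3.41 on the log2 scale (10.6-fold, SE 0.31, adjusted p = 0.0039). The log2FC was −1.36 without preconditioned replicate 3 (adjusted p = 0.25) and −1.48 without preconditioned replicate 2 (adjusted p = 0.38). The lowest library still held 55 counts (exact Poisson 95% interval 41.4 to 71.6, which covers counting error only) against 908 to 1082 in the fresh group.

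PPP1R15A (NCBI gene 103346344) encodes GADD34, the subunit that directs a phosphatase to eIF2 and restores translation. It was at 5.74, 6.02 and 5.69 CPM in the fresh libraries, an SD of log2 CPM at percentile 5.4 of all tested genes. In the preconditioned libraries it was at 21.2, 12.4 and 4.78 CPM. Preconditioned replicates 1 and 2 lay above the fresh group and replicate 3 below it. This gave a log2FC of 1.14 (SE 0.48, 95% interval 0.00 to 2.27, adjusted p = 0.16), and 0.55 without preconditioned replicate 1 (adjusted p = 0.33). Without preconditioned replicate 3 the log2FC was 1.53 (SE 0.27, adjusted p = 0.076).

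DDIT4 (NCBI gene 100341887) encodes REDD1, an inhibitor of the growth kinase mTORC1 that is induced by ATF4, hypoxia and glucocorticoids. Its level was 100.02, 135 and 99.1 CPM in the fresh and 64.9, 64.8 and 52.1 CPM in the preconditioned libraries. The groups were separate, and the preconditioned libraries lay within 1.25-fold of each other, the narrowest range of the 10 genes in that group. DDIT4 had a log2FC of −0.88 (SE 0.16, 95% interval −1.26 to −0.50, adjusted p = 0.039), a level 1.84-fold lower. It was the only gene of the 10 with an adjusted p of at most 0.05, where 5.08% of all tested genes had one, and it did not reach the 2-fold cutoff. With preconditioned replicate 1 left out, the adjusted p was 0.017, and with any other library left out it lay between 0.084 and 0.14.

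ASNS and PSAT1, a pair of enzymes of amino acid synthesis, had lower mean levels in the preconditioned group, and neither was called by edgeR over all 6 libraries. ASNS (asparagine synthetase, NCBI gene 100350331) makes asparagine from aspartate and glutamine. It had 73.6, 90.7 and 40.8 CPM in the fresh group and 44.4, 19.3 and 23.7 CPM in the preconditioned group. The groups overlapped only through fresh replicate 3 and preconditioned replicate 1. The log2FC was −1.23 (SE 0.39, 95% interval −2.17 to −0.29, adjusted p = 0.096 by edgeR). ASNS was called with DESeq2 (adjusted p = 0.013) and without preconditioned replicate 1 (log2FC −1.68, adjusted p = 0.027).

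PSAT1 (phosphoserine aminotransferase 1, NCBI gene 100009099) catalyses a step from glycolysis to serine. It had 215, 245 and 127 CPM in the fresh and 79.1, 50.2 and 158 CPM in the preconditioned libraries. Here preconditioned replicate 3 and not replicate 1 lay inside the fresh range. For PSAT1 the log2FC was −1.03 (SE 0.44, 95% interval −2.09 to 0.02, adjusted p = 0.17). It was −1.60 without preconditioned replicate 3 (SE 0.34, adjusted p = 0.092), and −0.72 was the value nearest to 0 with 1 library left out.

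CHAC1 (NCBI gene 100344591), a late target of the ATF4 and CHOP axis, breaks down glutathione. Its level was 5.54, 5.94 and 4.81 CPM in the fresh group and 6.94, 0.640 and 2.21 CPM in the preconditioned group. As for ATF4, preconditioned replicate 1 was the highest of the 6 libraries and the other preconditioned libraries were the lowest. CHAC1 had a log2FC of −0.73 (SE 0.73, 95% interval −2.46 to 1.0, adjusted p = 0.53 by edgeR), and −1.94 without preconditioned replicate 1 (SE 0.53, adjusted p = 0.041). CHAC1 was the least counted of the 10 genes, and the 20 counts in preconditioned replicate 2 have an exact Poisson 95% interval of 12.2 to 30.9.

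None of the 10 genes was called at an adjusted p of at most 0.05 and a 2-fold change, where 2.29% of the 15029 tested genes were called by edgeR's quasi-likelihood test. At an unadjusted p under 0.05 there were 4 of 10, against 30.6% of tested genes. DESeq2 called 1 of 10, ASNS, against 7.78% of the genes to which it gave an adjusted p. Fresh and preconditioned values were fully separate for 3 of the 10 genes, against 36.7% of tested genes. All 3 were lower in preconditioned cells, against 18.8% of tested genes for that direction. The median log2FC was −0.57 over the 10 genes, with 7 negative, and 0.01 over all tested genes. It was −0.91 without preconditioned replicate 1 and −0.33 without preconditioned replicate 2. Without preconditioned replicate 1, edgeR called 3 of 10 (TRIB3, ASNS and CHAC1), all lower, where 9.99% of tested genes were called and 6.01% were called lower.

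**Figure D3:**
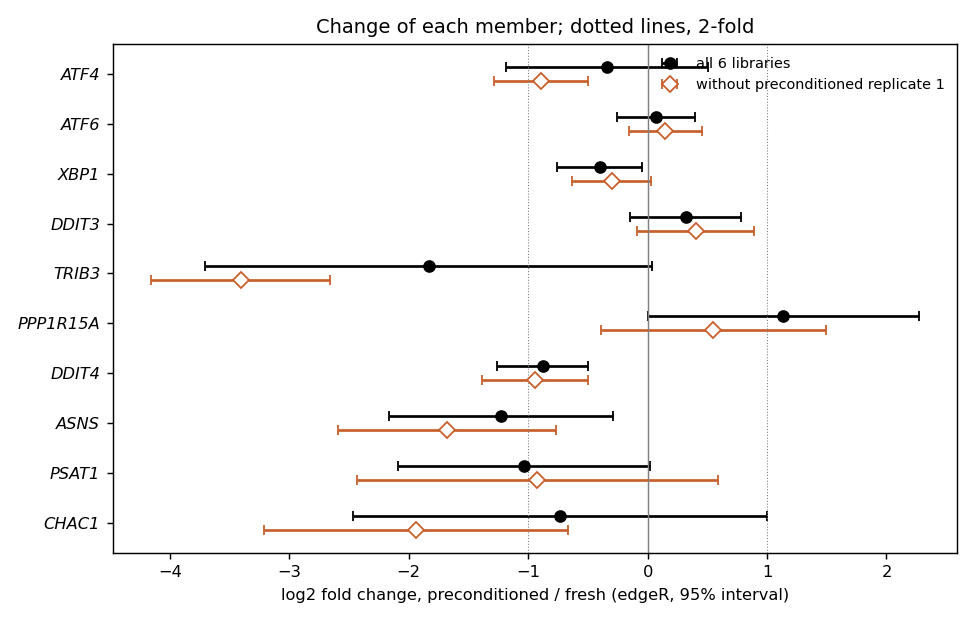
Log2 fold change of preconditioned over fresh with its 95% interval from edgeR for each of the 10 genes, with all 6 libraries (black) and without preconditioned replicate 1 (orange); dotted lines mark a 2-fold change. Leaving out that library moves TRIB3 from −1.83 to −3.41 and CHAC1 from −0.73 to −1.94, and leaves DDIT4 near −0.9.

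The 10 genes differed in how evenly the libraries of a group expressed them. The SD of log2 CPM had a median of 0.17 over the 10 genes in the fresh group, against 0.20 over all tested genes. In the preconditioned group it was 0.67, against 0.29. TRIB3, CHAC1 and PPP1R15A had this SD at percentiles 98, 97.9 and 93.7 of all tested genes in the preconditioned group, while DDIT4, XBP1 and ATF6 were at 30.3, 38.8 and 39.9. By the distance between profiles (the root mean square difference of mean-centred log2 CPM over the 6 libraries), ATF6 and DDIT3 were closest, at 0.15, and TRIB3 and PPP1R15A were farthest apart, at 1.76.

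Genes most like DDIT4, the gene of the 10 with the smallest p, were taken from all tested genes by the same distance. Among the closest were TCF7L2 (0.048), PGM2 (0.063), MACIR (0.089) and OSBPL7 (0.10), where the median distance of a tested gene was 0.58. TCF7L2, a transcription factor of the Wnt pathway, was expressed at 31.5, 40.7 and 31.4 CPM in the fresh and 19.9, 21.7 and 16.7 CPM in the preconditioned libraries. PGM2, a phosphopentomutase, was at 43.6, 61.7 and 43.4 CPM in the fresh and 28.7, 30.4 and 25.7 CPM in the preconditioned libraries. For both genes the groups did not overlap, but both were picked for likeness to DDIT4, whose groups are separate. Likeness over 6 libraries describes these libraries only.

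In 70 other genes of the pathway, grouped in 6 lists, 67 were tested and none was called by edgeR. At an unadjusted p under 0.05, 12 were higher and 15 lower, against 30.6% of all tested genes in either direction. DESeq2 called 5 (7.78% of all genes), of which GDF15 was higher and SLC7A5, STC2, CBS and ATF5 lower. Of the 67, 16 were higher without overlap of the groups (against 17.9% of all tested genes) and 15 were lower without overlap (against 18.8%). An adjusted p of at most 0.05 without the fold cutoff was reached by 4 of the 67, against 5.08% of all tested genes, and these were EIF2S3, DNAJB9 and DERL2 (higher) and EIF2AK1 (lower). Without preconditioned replicate 1, edgeR called 11 of these pathway genes, against 9.99% of all genes tested in that fit.

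Among 16 tested targets of ATF4 other than the 10 genes, 11 had a negative log2FC and the median was −0.61. The lowest were SLC7A5, a transporter of large neutral amino acids, and STC2, a secreted glycoprotein. SLC7A5 had 20.2, 33.8 and 20.1 CPM in the fresh and 14.8, 4.8 and 4.61 CPM in the preconditioned libraries, which did not overlap. Its log2FC was −1.62 (SE 0.50, adjusted p = 0.090 by edgeR). STC2 had a log2FC of −1.61 (SE 0.55, adjusted p = 0.11). PHGDH, the first enzyme of serine synthesis upstream of PSAT1, had 45.6, 59.9 and 37.4 CPM in the fresh and 39.3, 11.7 and 11.6 CPM in the preconditioned group. As for TRIB3, preconditioned replicate 1 was nearer to the fresh libraries than to the other preconditioned ones, and the log2FC was −1.19 (SE 0.50, adjusted p = 0.17). The targets were not all lower. GDF15, a secreted stress cytokine, had 2.78, 7.65 and 3.01 CPM in the fresh and 9.07, 18.3 and 17.1 CPM in the preconditioned libraries, a log2FC of 1.72 (SE 0.47, adjusted p = 0.069). SLC7A11, the cystine importer, had a log2FC of 0.69 (SE 0.30, adjusted p = 0.17). Without preconditioned replicate 1, edgeR called 5 of these 16 targets lower (PHGDH, SLC7A5, STC2, MTHFD2 and SHMT2), against 6.01% of all genes tested in that fit, and GDF15 higher.

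Chaperones and folding enzymes of the ER lay on the other side of 0. Of 16 tested, 14 had a positive log2FC, with a median of 0.27, and the groups did not overlap for 6, all higher, against 17.9% of all tested genes in that direction. With library size alone as the scaling, 10 were positive and the median was 0.10, beside a shift of the median of all tested genes to −0.16. HSPA5 (BiP), the main chaperone of the ER and a standard readout of its stress, had 414, 473 and 449 CPM in the fresh and 506, 648 and 496 CPM in the preconditioned libraries, which did not overlap. The log2FC was 0.30 (SE 0.14, adjusted p = 0.19 by edgeR). The highest were the oxidases ERO1A and ERO1B, which drive disulfide formation. ERO1A had 295, 286 and 387 CPM in the fresh and 412, 806 and 579 CPM in the preconditioned group, a log2FC of 0.89 (SE 0.25, adjusted p = 0.074), and ERO1B one of 0.89 (adjusted p = 0.058). Both were called higher without preconditioned replicate 1, ERO1A at 1.09 (adjusted p = 0.013) and ERO1B at 1.04 (adjusted p = 0.012). The lowest were PDIA6 (−0.30, adjusted p = 0.20) and HYOU1 (−0.13, adjusted p = 0.43).

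**Figure D4:**
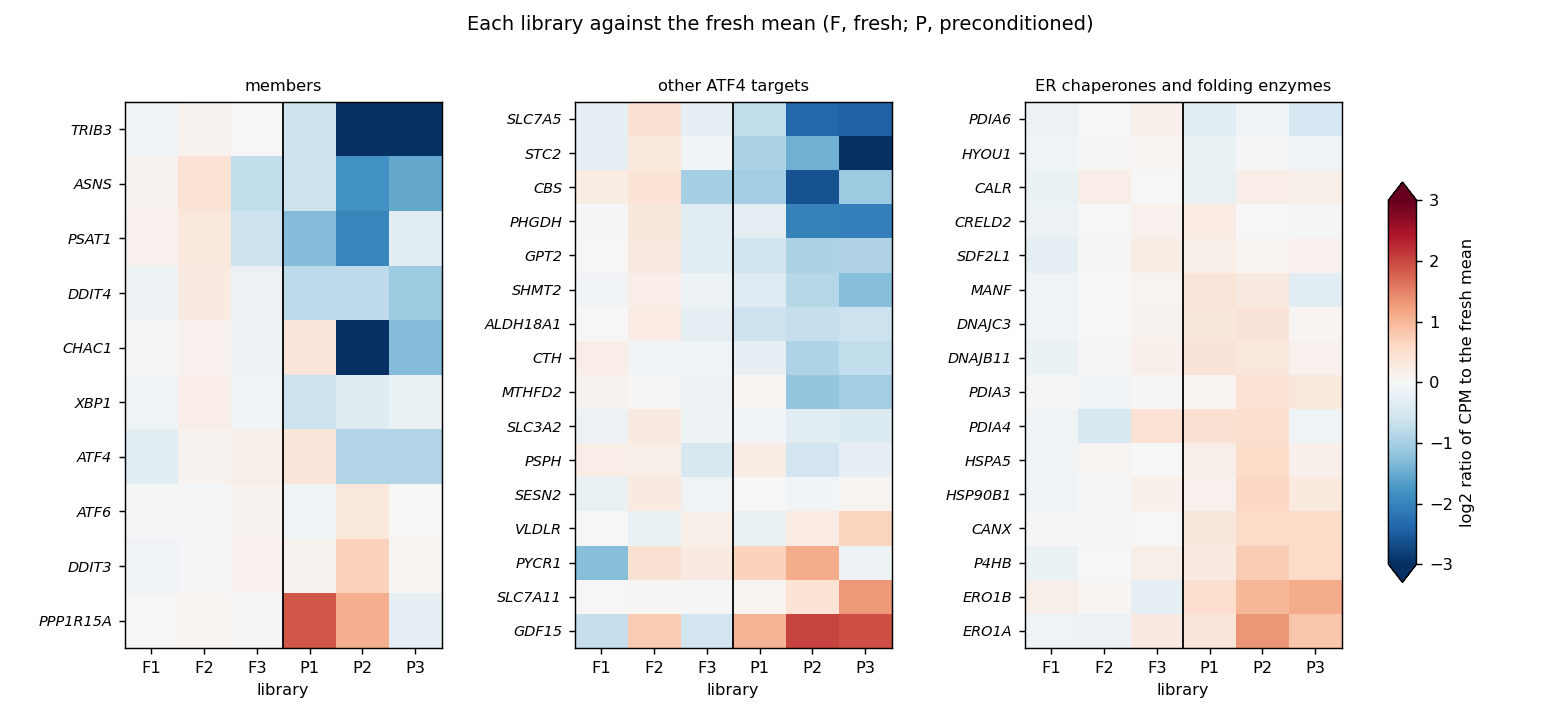
Log2 ratio of CPM to the fresh mean in each library (F, fresh; P, preconditioned; colours end at −3 and 3) for the 10 genes, 16 other targets of ATF4 and 16 ER chaperones and folding enzymes, ordered by log2 fold change. The median ratio of the ATF4 targets is −0.24, −0.78 and −0.69 in preconditioned replicates 1 to 3, and that of the chaperones is 0.25, 0.41 and 0.15.

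The list of ER translocation and ER-associated degradation was mixed, with 8 of 14 tested genes positive and a median log2FC of 0.20 (0.03 with library size alone). DNAJB9 (ERdj4), an ER co-chaperone and target of spliced XBP1, was at 39.4, 40.8 and 48.5 CPM in the fresh and 58.9, 93.1 and 81.8 CPM in the preconditioned libraries. The groups did not overlap, and the log2FC was 0.86 (1.82-fold, SE 0.18, adjusted p = 0.047 by edgeR). Without preconditioned replicate 1, DNAJB9 rose by 1.02 on the log2 scale and was called (adjusted p = 0.0056). DERL2, a channel component of degradation, had a log2FC of 0.42 (adjusted p = 0.0498). HERPUD1, a degradation factor that is readily induced by ER stress, had one of 0.17 (adjusted p = 0.48), with overlapping groups. WFS1 (−0.68, adjusted p = 0.11) and DERL1 (−0.43, adjusted p = 0.198) were lowest.

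Upstream, the sensors had mostly negative values, in 6 of 7 genes, with a median log2FC of −0.29. This median was −0.46 with library size alone and −0.19 without fresh replicate 2, with 6 negative in both. EIF2AK1, the heme-regulated eIF2 kinase, was at 58.2, 67.4 and 60.1 CPM in the fresh and 43.4, 37.0 and 44.9 CPM in the preconditioned group, a log2FC of −0.57 (SE 0.12, adjusted p = 0.048 by edgeR). The lowest values belonged to EIF2AK2, the kinase PKR that senses double-stranded RNA (−0.74, adjusted p = 0.27, and called at −1.30 with an adjusted p of 0.031 without preconditioned replicate 1), and MBTPS1, the protease that makes the first cut in ATF6 (−0.62, adjusted p = 0.088). The highest were MBTPS2, the protease of the second cut (0.21, adjusted p = 0.25), and EIF2AK4, the kinase GCN2 (−0.07, adjusted p = 0.89). In the list of eIF2 and its exchange factor, the median was −0.01 over 9 genes, and 0.015 without preconditioned replicate 3. With library size alone it was −0.18, with 8 negative, beside a median of −0.16 over all tested genes. EIF2S3, the gamma subunit of eIF2, was at 399, 358 and 363 CPM in the fresh and 506, 582 and 571 CPM in the preconditioned libraries (log2FC 0.57, SE 0.11, adjusted p = 0.042). The next highest was EIF2S2, the beta subunit (0.13, adjusted p = 0.54). EIF2B4 (−0.40, adjusted p = 0.072) and EIF2B1 (−0.39, adjusted p = 0.13), subunits of the exchange factor, were lowest.

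Of 5 other tested transcription factors of the response, 4 had a negative log2FC, with a median of −0.25. The median was −0.073 without fresh replicate 3 and −0.375 without preconditioned replicate 2, with all 5 negative in both fits. ATF5, a relative of ATF4 with the same mode of translation, was at 12.7, 19.6 and 12.2 CPM in the fresh and 10.9, 4.86 and 2.90 CPM in the preconditioned libraries. The groups were separate, with a log2FC of −1.25 (SE 0.48, adjusted p = 0.14 by edgeR), and ATF5 was called without preconditioned replicate 1 (−1.95, adjusted p = 0.012). CEBPG, a dimer partner of ATF4, had a log2FC of −0.39 (adjusted p = 0.066). ATF3, an early stress factor, was highest at 0.21 (SE 0.40, adjusted p = 0.75), followed by NUPR1 at −0.07 (adjusted p = 0.80). The sign of ATF3 was negative without fresh replicate 3 and without preconditioned replicate 2.

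**Figure D5:**
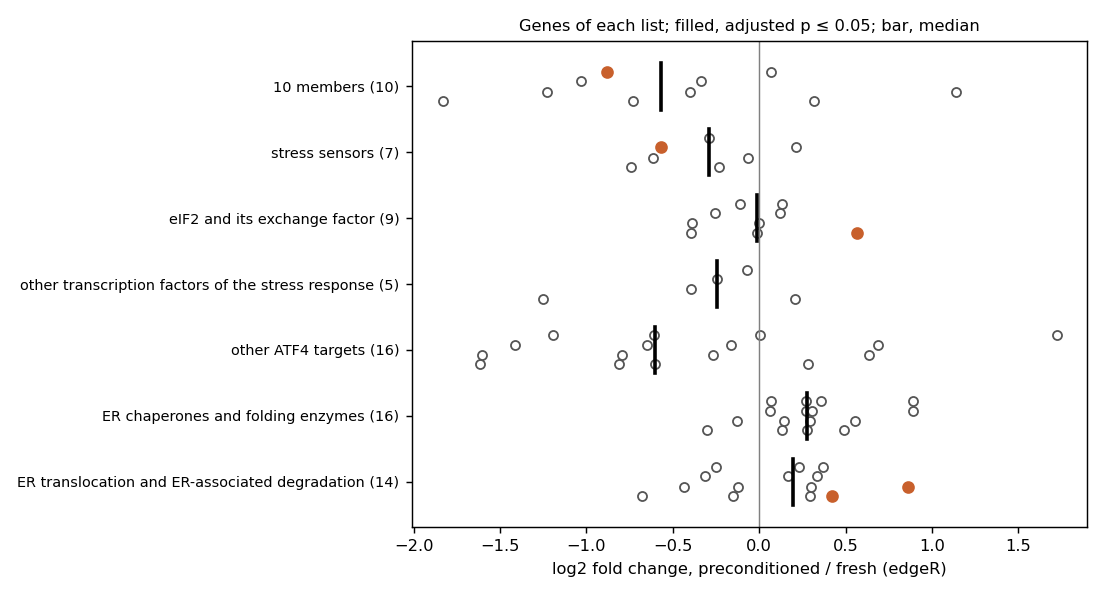
Log2 fold change of preconditioned over fresh (edgeR) for each tested gene of the 10 members and the 6 pathway lists, with the number tested in brackets; filled points have an adjusted p of at most 0.05 and black bars are medians. The median is −0.57 for the 10 members, −0.61 for the other ATF4 targets and 0.27 for the ER chaperones.

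In the annotation deposited with the counts, ATF4, ATF6, XBP1 and DDIT3 share the pathway protein processing in endoplasmic reticulum. It held 185 genes, of which 169 were tested. Their median log2FC was 0.09, with 99 positive, and −0.08, with 70 positive, when library size alone was the scaling. Of the 169, 1 was called higher and 1 lower by edgeR, against 2.29% of all tested genes. SVIP, an inhibitor of degradation at the ER, had 1.01, 1.35 and 0.492 CPM in the fresh and 3.07, 8.38 and 9.55 CPM in the preconditioned libraries (log2FC 2.87, SE 0.55, adjusted p = 0.041). NSFL1C, the adaptor p47, had 11.2, 18.8 and 3.26 CPM in the fresh and 1.004, 0.608 and 0.691 CPM in the preconditioned libraries (log2FC −3.84, SE 0.66, adjusted p = 0.038). With 1 library left out in turn, NSFL1C was called in 2 of 6 fits (without fresh replicate 3 or preconditioned replicate 1) and SVIP in 1 (without preconditioned replicate 1). In the latter fit, 6 of the 169 were called higher (SVIP, ERO1A, ERO1B, FBXO2, SIL1 and UBXN1) and 3 lower (NSFL1C, EIF2AK2 and LOC127493063), against 9.99% of all genes tested. MAPK10, a gene of this pathway that passed the filter in that fit but is not among the 169, was also called higher. A gene low in the fresh group can pass the filter through the preconditioned libraries alone, so this call is not counted. Without preconditioned replicate 3, LOC100357982 was called higher (log2FC 3.79, adjusted p = 0.021). DESeq2 called 4 of the 169 genes higher and 2 lower, against 7.78% of all genes. Without the fold cutoff, 12 were higher and 3 lower at an adjusted p of at most 0.05 by edgeR, against 5.08% of all tested genes.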

How the data were processed

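RNA-seq was performed on 3 fresh and 3 preconditioned libraries of rabbit LSCs, grouped by their sample titles. The authors used hisat2 for alignment and htseq-count for counting, and deposited the counts without normalization. The genome build, annotation and strand setting are not given in the sources used here. FPKM values were deposited too, and they equal each count divided by the library total and 1 length per gene (checked on 16501 genes); the length's definition is not given either.

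The analysis of the counts used edgeR 4.0.16 under R 4.3.3 (filterByExpr, TMM, robust quasi-likelihood test, condition only). Of 22190 genes, 15029 were tested, p values were adjusted by Benjamini-Hochberg over all of them, and a gene was called if its adjusted p was 0.05 or less and it changed at least 2-fold. CPM were TMM-scaled, with a prior count of 2 before logs. Standard errors came from the F statistic. With 31952352 to 34327534 counts per library, the spread of replicates exceeded counting error for TRIB3 and CHAC1, the sparsest values among the members. The alternatives were DESeq2 1.42.0, limma 3.58.1 on log2(FPKM + 1) and log2(FPKM + 0.1), other scalings and filters, the replicate number as a block, no fold cutoff, and each library left out. The fits were run on simulated counts, with the same dispersion for every gene and larger changes than the members had over all 6 libraries. No result here rests on that run.

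The members and lists were chosen with earlier results of these data known. Named genes were the members, called genes, the 2 highest and 2 lowest of each list, the 5 genes most like the member with the smallest p (1 of them is not reported here), and HSPA5, DNAJB9, HERPUD1, PHGDH and ATF3. EIF2AK1 and the genes named because another setting called them (CBS, MTHFD2, SHMT2, FBXO2, MAPK10, SIL1, UBXN1, LOC127493063, LOC100357982) were chosen after their values were seen. Of 70 pathway genes, ATF6B was not found by symbol, and FGF21 and DERL3 did not pass the filter. KRT14, KRT12, ABCG2, ABCB5, MUC5AC and TFF1 were not analysed here.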

Additional observations from a re-analysis of the deposited data

How the results depend on the processing

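Every library but preconditioned replicate 1 could be left out without a call among the 10 members or the other pathway genes. Over the 6 fits that leave out 1 library, the number of members called ranged from 0 to 3, that of pathway genes from 0 to 11, and that of all genes from 14 to 1546, against 0, 0 and 344. The highest number in each case was reached without preconditioned replicate 1. DESeq2 called 1 member (ASNS), 5 pathway genes and 1190 genes in all (553 higher, 637 lower). Library size alone gave 1 member (DDIT4) and 565 genes (142 higher, 423 lower), with the all-gene median log2 fold change at −0.16 in place of 0.01. Limma on log2(FPKM + 1) called 1 member, DDIT4, and 283 genes (77 higher, 206 lower), and on log2(FPKM + 0.1) it called 1 member, DDIT4 again, and 590 genes (141 higher, 449 lower). Without a fold cutoff there were 1 member (DDIT4), 4 pathway genes and 763 genes. With the replicate number as a block, 30 genes were called and no member or pathway gene, and DDIT4 had an adjusted p of 0.078. Same-numbered libraries showed no shared deviation (correlations across genes of −0.067, −0.073 and −0.11). Whether the numbers mark a shared animal or batch is not given. Such correlations cannot decide it, because other differences between libraries can hide a pairing. The cause of the differences between settings was not tested. Of 140 values for single members over 14 settings, 4 changed sign, all of ATF6, with log2 fold changes of −0.11 (library size alone), −0.10 and −0.11 (limma on log2(FPKM + 1) and + 0.1) and −0.068 (without preconditioned replicate 2). Over the 6 libraries left out in turn, the value of ATF6 ranged from −0.068 to 0.15. Leaving out preconditioned replicate 2 moved ATF4 to −0.12, CHAC1 to −0.24 and DDIT3 to 0.086.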
